A study of Homo sapiens with 10 samples.

Results

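Integrins are the main receptors by which epithelial cells hold on to the extracellular matrix. The 10 genes described here encode subunits that are found in epithelium, though not all of them only there. They are the alpha subunits ITGA2, ITGA3, ITGA5, ITGA6 and ITGAV, and the beta subunits ITGB1, ITGB4, ITGB5, ITGB6 and ITGB8. The genes were taken by name from the 58884 gene rows of each count table, by a rule that uses no measured value but was drawn up with earlier results of these data known, and each symbol was matched to 1 Ensembl identifier. They are 10 of the 26 integrin subunit genes examined. Polyadenylated RNA had been sequenced from HCT116 cells, a human colorectal carcinoma line of wild-type genotype (n = 6), and from DNMT1 KO cells, a derivative of HCT116 (n = 4). DNMT1 encodes the methyltransferase that copies DNA methylation onto newly replicated DNA. The DNMT1 KO line was made by deleting exons of the gene and still makes a small amount of a shortened DNMT1 protein, so it is a hypomorph, and it is a single stable line rather than an acute loss. Both lines were grown in McCoy's 5A medium with foetal calf serum. By the labels, replicate 1 of both lines belongs to batch 1 and replicates 2 and 3 of both lines to batch 2, whereas DNMT1 KO replicate 4 is from batch 3 and HCT116 replicates 7, 8 and 9 are from batch 4.

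An integrin is a pair of 1 alpha and 1 beta subunit, and the pair decides the ligand. The beta1 subunit pairs with many alpha subunits: alpha2beta1 binds collagen, alpha3beta1 and alpha6beta1 bind laminins, and alpha5beta1 binds the RGD motif of fibronectin. The beta4 subunit pairs with alpha6 alone, and alpha6beta4 anchors epithelial cells to laminin-332 of the basement membrane through the hemidesmosome. Among the beta subunits described here, the alphav subunit pairs with beta1, beta5, beta6 or beta8. It binds RGD-containing ligands such as vitronectin, and with beta6 or beta8 it activates latent TGF-beta.

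CpG sites, where DNMT1 acts, are unevenly spread over the start regions of these genes, and 4 starts are printed because they span that spread, from the most CpG-dense start of the matched beta subunits to one with no CpG. RefSeq start regions (GRCh38.p14, 250 bases before to 50 bases after the start) were matched by symbol for ITGA2, ITGA5, ITGA6, ITGAV, ITGB1, ITGB5, ITGB6 and ITGB8. ITGA3 and ITGB4 had no entry. Each sequence runs 5′ to 3′ on the gene's strand, and capitals mark the CG dinucleotides. ITGB1 is at chr10:32958181-32958480 (minus strand), ITGAV at chr2:186589806-186590105 (plus strand), ITGB8 at chr7:20330650-20330949 (plus strand) and ITGB6 at chr2:160200223-160200522 (minus strand).
ITGB1: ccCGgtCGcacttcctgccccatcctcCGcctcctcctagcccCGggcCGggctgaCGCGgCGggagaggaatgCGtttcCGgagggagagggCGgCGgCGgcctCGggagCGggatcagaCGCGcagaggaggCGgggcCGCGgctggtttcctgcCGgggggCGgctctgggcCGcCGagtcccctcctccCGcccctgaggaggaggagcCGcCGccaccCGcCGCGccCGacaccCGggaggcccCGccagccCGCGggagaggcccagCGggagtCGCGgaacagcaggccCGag
ITGAV: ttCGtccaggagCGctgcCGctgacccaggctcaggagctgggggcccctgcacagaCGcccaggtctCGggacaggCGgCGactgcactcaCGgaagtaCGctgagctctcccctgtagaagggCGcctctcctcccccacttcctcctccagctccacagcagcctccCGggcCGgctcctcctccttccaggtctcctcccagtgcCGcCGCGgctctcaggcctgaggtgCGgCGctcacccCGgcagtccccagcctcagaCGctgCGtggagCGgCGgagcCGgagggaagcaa
ITGB8: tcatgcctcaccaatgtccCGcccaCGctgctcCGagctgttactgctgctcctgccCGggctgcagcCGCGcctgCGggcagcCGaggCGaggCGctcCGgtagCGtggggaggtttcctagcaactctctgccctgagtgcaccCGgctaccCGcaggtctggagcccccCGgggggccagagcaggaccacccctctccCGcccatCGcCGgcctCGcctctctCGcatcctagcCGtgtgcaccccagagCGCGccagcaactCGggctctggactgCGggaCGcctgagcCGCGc
ITGB6: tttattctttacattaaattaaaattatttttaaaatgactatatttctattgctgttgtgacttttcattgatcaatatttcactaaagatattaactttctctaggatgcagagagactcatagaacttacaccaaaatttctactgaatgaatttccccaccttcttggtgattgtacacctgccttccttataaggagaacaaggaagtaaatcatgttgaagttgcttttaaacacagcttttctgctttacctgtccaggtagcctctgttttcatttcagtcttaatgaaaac
The ITGB1 start holds 39 CpG sites, more than 91.3% of the 35116 start regions of the same length, whose median is 14. The ITGB8 start holds 28 and the ITGAV start 23. The ITGB6 start holds 0 CpG sites and has a GC content of 31.7%. Among the other starts, ITGA2 holds 27 CpG sites, ITGA5 holds 16, ITGA6 holds 11 and 38 at its annotated start regions and ITGB5 holds 11, 27 and 32, while further annotated starts of ITGB1 and ITGAV hold 4 and 1. The letters GGGCGG, counted on both strands, occur 3 times in the ITGB1 start and 2 times in the ITGB8 start, and they occur at least once in 44.95% of all start regions. These are letters in a window, and the DNA methylation of these windows was not measured in the libraries used here.

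Depth ran from 26700853 to 85991812 counts per library. DNMT1 itself was at 89.8 to 263 CPM in HCT116 and 14.1 to 22.3 CPM in DNMT1 KO (CPM, counts scaled by TMM-adjusted library totals). Its log2 fold change was -2.97 (SE 0.33, adjusted p = 1.74e-05 in edgeR's quasi-likelihood test). Among genes with 1 to 10 counts, 64.4 to 70.0% of the counts were even in 9 libraries and 39.9% in DNMT1 KO replicate 4, so counts of most libraries may come in mate pairs. HCT116 batch 4 stands apart from HCT116 batches 1 and 2 for several of the genes described here, and the fold changes of the tested members are given with and without it.

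RNA of the laminin receptor subunits ITGB4, ITGA3 and ITGA6, and of ITGB1 and ITGAV, was lower in DNMT1 KO cells than in HCT116. Of the 10 genes, 9 had enough counts to be tested, and these 5 passed at an adjusted p under 0.05 in the lower direction. Over all 19279 genes tested, 16.1% passed in either direction and 7.61% passed lower. The same 5 also lay beyond a log2 fold change of -1, a mark reached by 6.49% of all genes. No member passed in the higher direction in edgeR (8.45% of all genes did), where 1 member, ITGB8, was higher at an unadjusted p under 0.05, and ITGB8 passed in DESeq2. Over the 9 tested members the log2 fold changes had a median of -1.25, and over all genes tested one of -0.07. Scaling to library totals alone moved the median of all genes to 0.14 and turned the direction of none of the 9. In bulk RNA, fewer cells of a type and less RNA per cell cannot be told apart.

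**Figure D1:**
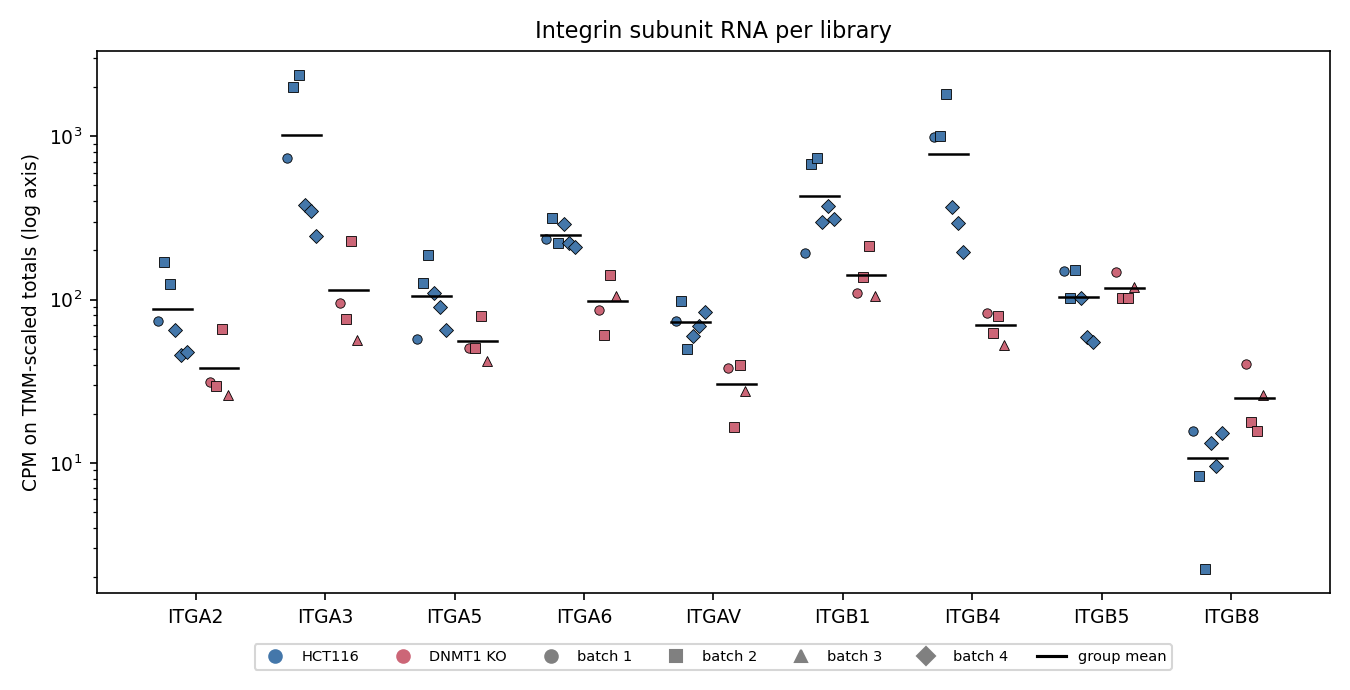
Level of each tested integrin subunit gene in every library, as CPM on TMM-scaled totals on a log axis, with HCT116 in blue, DNMT1 KO in red, the batch as the marker shape and the group mean as a line. The DNMT1 KO libraries lie below every HCT116 library for ITGA3, ITGA6, ITGAV and ITGB4, and HCT116 batch 4 lies well below batches 1 and 2 for ITGA3 and ITGB4.

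ITGB4 (ENSG00000132470, chromosome 17, 75721328 to 75757818, plus strand, hg38), the beta subunit that links laminin to the keratin network, was at 195 CPM in the lowest, 677 in the median and 1806 in the highest HCT116 library. In DNMT1 KO replicates 1 to 4 it was at 82.8, 62.0, 79.8 and 52.9 CPM. The groups did not overlap, and the 4 DNMT1 KO libraries lay close together while the HCT116 libraries spread widely. The means were 777 ± 616 CPM (SD, n = 6) and 69.4 ± 14.3 CPM (SD, n = 4). At 11.2-fold lower, its log2 fold change of -3.48 (SE 0.59, edgeR adjusted p = 0.000635) was the largest in size among the members. Taken within a batch, the log2 ratio was -3.58 in batch 1, with 1 library per line, and -4.31 in batch 2, with 2 per line.

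ITGA3 (ENSG00000005884, chromosome 17, 50055968 to 50090481, plus strand), the alpha subunit of the main laminin-332 and laminin-511 receptor of epithelium, had a similar pattern. It was at 247 CPM in the lowest, 559.8 in the median and 2363 in the highest HCT116 library. DNMT1 KO replicates 1 to 4 had 95.6, 76.1, 229 and 56.8 CPM. Replicate 3 was the highest of the DNMT1 KO libraries and came close to the lowest HCT116 library without reaching it, so the groups did not overlap. The means were 1013 ± 927 CPM (SD, n = 6) and 114 ± 78.1 CPM (SD, n = 4), or 8.85-fold lower, at a log2 fold change of -3.15 (SE 0.70, edgeR adjusted p = 0.00562). With 1 library left out at a time the log2 fold change ran from -2.68, without HCT116 replicate 3, to -3.73, without DNMT1 KO replicate 3.

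ITGA6 (ENSG00000091409, chromosome 2, 172427354 to 172506459, plus strand), the alpha subunit shared by the alpha6beta1 and alpha6beta4 laminin receptors, was even across HCT116. Its lowest, median and highest HCT116 libraries had 210.1, 229 and 315 CPM. In DNMT1 KO replicates 1 to 4 it was at 86.7, 60.8, 141 and 105 CPM, below every HCT116 library. The means were 249 ± 42.8 CPM (SD, n = 6) and 98.4 ± 33.8 CPM (SD, n = 4), 2.53-fold lower, with a log2 fold change of -1.34 (SE 0.26, edgeR adjusted p = 0.00217). The within-batch log2 ratios were -1.43 in batch 1 and -1.41 in batch 2. Exons of ITGA6 share 5.23% of their length with other annotated genes, among them ITGA6-AS1, and without a strand setting in the counting their reads cannot be told apart.

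ITGB1 (ENSG00000150093, chromosome 10, 32900318 to 33005792, minus strand), the beta subunit of most matrix receptors, was at 192 CPM in the lowest, 341 in the median and 736 in the highest HCT116 library. DNMT1 KO replicates 1 to 4 had 109, 138, 212 and 105 CPM. DNMT1 KO replicate 3 lay above HCT116 replicate 1, the lowest of its group, and below the other 5 HCT116 libraries, so the groups overlapped by this pair. The means were 431 ± 221 CPM (SD, n = 6) and 141 ± 49.5 CPM (SD, n = 4), with a log2 fold change of -1.61 (SE 0.39, edgeR adjusted p = 0.00917), 3.05-fold lower. Within batches 1 and 2 its log2 ratios were -0.81 and -2.01.

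ITGA2 (ENSG00000164171, chromosome 5, 52989340 to 53094779, plus strand), the collagen-binding alpha subunit, did not pass the test. Its lowest, median and highest HCT116 libraries had 45.9, 69.5 and 169.8 CPM, and DNMT1 KO replicates 1 to 4 had 31.1, 29.7, 66.02 and 25.9 CPM. DNMT1 KO replicate 3 lay within the range of HCT116 and the other 3 lay below it. A log2 fold change of -1.20 (SE 0.41) had an edgeR adjusted p of 0.0592. It passed without DNMT1 KO replicate 3 (-1.59, edgeR adjusted p = 0.0246), without HCT116 replicate 8 (-1.33, adjusted p = 0.0397) and without HCT116 replicate 9 (-1.33, adjusted p = 0.0393). Without any other library it did not pass, at edgeR adjusted p-values of 0.0665 to 0.168. Over the 21 alternatives run it passed in 8.

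ITGA5 (ENSG00000161638, chromosome 12, 54395261 to 54419266, minus strand), the alpha subunit of the classical fibronectin receptor, was at 57.5 CPM in the lowest, 99.6 in the median and 187 in the highest HCT116 library. It was at 50.5, 50.4, 79.0 and 42.1 CPM in DNMT1 KO replicates 1 to 4. The groups overlapped, with DNMT1 KO replicate 3 above 2 of the HCT116 libraries. A log2 fold change of -0.93 (SE 0.33) had an edgeR adjusted p of 0.0698. It passed without HCT116 replicate 1 (-1.04, edgeR adjusted p = 0.0412) and without HCT116 replicate 9 (-1.04, adjusted p = 0.0461). Without any other library it did not pass, at edgeR adjusted p-values of 0.0561 to 0.193. Over the 21 alternatives run it passed in 4. Within batches 1 and 2 the log2 ratios were -0.19 and -1.27.

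In the alphav family ITGAV passed lower, while ITGB5 and ITGB8 did not pass and ITGB6 was too low to test. ITGAV (ENSG00000138448, chromosome 2, 186590056 to 186680901, plus strand), the shared alpha subunit of these RGD-binding receptors, was at 49.9 CPM in the lowest, 71.4 in the median and 97.9 in the highest HCT116 library. DNMT1 KO replicates 1 to 4 had 37.9, 16.5, 39.9 and 27.4 CPM, all below HCT116. The means were 72.4 ± 17.03 CPM (SD, n = 6) and 30.4 ± 10.8 CPM (SD, n = 4), 2.38-fold lower, with a log2 fold change of -1.25 (SE 0.28, edgeR adjusted p = 0.00642). Within batches 1 and 2, with batch as a term, the size was the same at -1.25 and the call was lost (edgeR adjusted p = 0.0628).

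ITGB5 (ENSG00000082781, chromosome 3, 124761948 to 124901418, minus strand), whose pair with alphav is a vitronectin receptor, was at 54.9 CPM in the lowest, 102 in the median and 151 in the highest HCT116 library. It was at 147, 103, 102 and 119.7 CPM in DNMT1 KO replicates 1 to 4, inside the range of HCT116. A log2 fold change of 0.19 (SE 0.30) had an edgeR adjusted p of 0.730. Its sign depended on the HCT116 libraries used, at 0.75 against batch 4 alone (edgeR adjusted p = 0.0537) and -0.19 against batches 1 and 2 alone (adjusted p = 0.679).

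ITGB8 (ENSG00000105855, chromosome 7, 20330702 to 20415754, plus strand), the beta subunit of an activator of latent TGF-beta, was at 2.25 CPM in the lowest, 11.4 in the median and 15.6 in the highest HCT116 library. DNMT1 KO replicates 1 to 4 had 40.5, 17.9, 15.7 and 25.9 CPM. The groups did not overlap, though DNMT1 KO replicate 3 lay just above the highest HCT116 library. Among all genes tested, 8.4% had every DNMT1 KO library above every HCT116 library, and 6.79% had every one below, as 4 of the tested members did. The ITGB8 log2 fold change of 1.22 (SE 0.43, edgeR adjusted p = 0.0662) did not pass. It passed with HCT116 replicate 3 left out (1.05, edgeR adjusted p = 0.0316), with DNMT1 KO replicate 3 left out (1.43, adjusted p = 0.0483) and in DESeq2 (1.25, adjusted p = 0.0324), and over the 21 alternatives run it passed in 8.

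ITGB6 (ENSG00000115221, chromosome 2, 160099667 to 160200313, minus strand), the epithelial beta subunit whose pair with alphav also activates latent TGF-beta, was near zero in both groups. The 6 HCT116 libraries held 6, 2, 4, 0, 2 and 4 counts and the 4 DNMT1 KO libraries 3, 4, 10 and 1 counts. It was below the filter on low counts and was not tested, and no fold is given. Exons of ITGB6 share 16.7% of their length with another annotated gene.

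**Figure D2:**
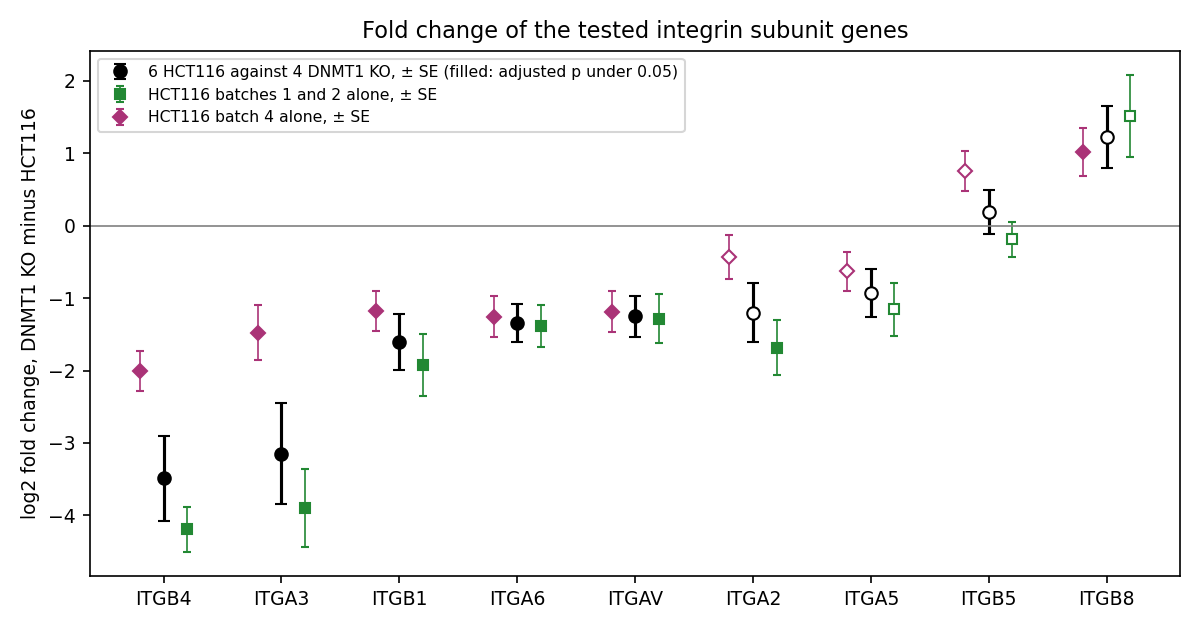
Log2 fold change of each tested member, DNMT1 KO minus HCT116, with bars of ± SE, against all 6 HCT116 libraries (black), against HCT116 batches 1 and 2 alone (green) and against HCT116 batch 4 alone (purple), and filled where the adjusted p was under 0.05. The fold changes of ITGB4 and ITGA3 are -3.48 and -3.15 against all HCT116 libraries and -2.002 and -1.47 against batch 4 alone, whereas those of ITGA6 and ITGAV hardly move.

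Some of the members also differed between batches within HCT116. Between HCT116 batch 4 and HCT116 batches 1 and 2, 3 of the 9 tested members passed, all lower in batch 4: ITGA3, ITGB4 and ITGA2. Over all 18656 genes tested between these libraries, 8.03% passed and 4.94% passed lower. ITGA3 was at 325 CPM in batch 4 and 1700.4 CPM in batches 1 and 2, a log2 fold change of -2.41 (SE 0.44, edgeR adjusted p = 0.00711, 3 libraries against 3). ITGB4 was at 286 and 1268 CPM, a log2 fold change of -2.18 (SE 0.39, edgeR adjusted p = 0.0067). ITGA6 and ITGAV had log2 fold changes of -0.10 and -0.07 between these batches, with edgeR adjusted p-values of 0.866 and 0.916. Batch 4 holds HCT116 alone, so batch and culture cannot be told apart there.

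Against each set of HCT116 libraries ITGB4 and ITGA3 passed, at different sizes. Against batch 4 alone the log2 fold change was -2.002 for ITGB4 (edgeR adjusted p = 4.68e-05) and -1.47 for ITGA3 (adjusted p = 0.00834), where 12.1% of all genes passed lower and 14.6% higher. Against batches 1 and 2 alone they were -4.19 (edgeR adjusted p = 1.24e-05) and -3.90 (adjusted p = 0.00062), where 8.7% passed lower and 7.93% higher. ITGA6 was at -1.26 and -1.38, ITGAV at -1.19 and -1.28, and ITGB1 at -1.18 and -1.92 in these comparisons, and each of the 3 passed in both. ITGA2 passed against batches 1 and 2 alone (-1.69, edgeR adjusted p = 0.0111) but not against batch 4 alone (-0.43, adjusted p = 0.317), and ITGB8 passed against batch 4 alone (1.01, adjusted p = 0.0315) but not against batches 1 and 2 alone (1.52, adjusted p = 0.101). ITGA5 passed against neither set, at -0.63 against batch 4 alone (edgeR adjusted p = 0.0906) and -1.15 against batches 1 and 2 alone (adjusted p = 0.0573). Within batches 1 and 2 with batch as a term, ITGB8 was at 1.57 (edgeR adjusted p = 0.0423), where 7.8% of all genes passed higher and 7.7% lower.

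Counts per length put the members in a different order in the 2 lines. In HCT116 the levels per kilobase of exon, in CPM per kb, were 115 ± 91.1 for ITGB4, 103 ± 94.6 for ITGA3, 71.6 ± 36.7 for ITGB1 and 37.1 ± 6.37 for ITGA6 (SD, n = 6). ITGB5 followed at 15.8 ± 6.46, ITGA5 at 14.3 ± 6.40, ITGA2 at 11.1 ± 6.24, ITGAV at 8.81 ± 2.07, ITGB8 at 0.705 ± 0.335 and ITGB6 at 0.012. In that order the libraries of neighbours overlapped except between ITGA6 and ITGB5, ITGAV and ITGB8, and ITGB8 and ITGB6. In DNMT1 KO the order was ITGB1 at 23.5 ± 8.24 CPM per kb, ITGB5 at 18.1 ± 3.24, ITGA6 at 14.7 ± 5.03, ITGA3 at 11.7 ± 7.97 and ITGB4 at 10.3 ± 2.12 (SD, n = 4). ITGA5 at 7.52 ± 2.18, ITGA2 at 4.83 ± 2.37, ITGAV at 3.70 ± 1.31, ITGB8 at 1.65 ± 0.741 and ITGB6 at 0.0147 followed. There only ITGB8 and ITGB6 did not overlap as neighbours. The head of the HCT116 order depended on the batch. In batches 1 and 2 the means were 187.5 CPM per kb for ITGB4, 173 for ITGA3, 88.8 for ITGB1 and 38.2 for ITGA6, with ITGB4 at the head. In batch 4 they were 54.5 for ITGB1, 42.2 for ITGB4, 35.9 for ITGA6 and 33.2 for ITGA3, with ITGB1 at the head as in DNMT1 KO.

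Within a library, the share of each subunit in the summed levels per kilobase describes the make-up of the subunit RNA without any scaling between libraries. Subunit protein and pairing were not measured in these libraries. Among the 5 alpha subunits, ITGA3 made up 50.1 ± 18.6% in HCT116 (SD, n = 6) and 25.9 ± 6.96% in DNMT1 KO (SD, n = 4). ITGA6 made up 27.2 ± 12.1% and 35.5 ± 7.41%, and ITGA5 9.35 ± 3.40% and 18.4 ± 3.32%. By batch, the ITGA3 share was 55.3 to 75.1% in HCT116 batches 1 and 2 and 30.9 to 37.3% in batch 4, the latter overlapping with 17.2 to 34.2% in DNMT1 KO. The ITGA6 share was 10.2 to 25.5% in batches 1 and 2 and 34.99 to 38.4% in batch 4, within the 30.8 to 46.4% of DNMT1 KO. The ITGA5 share was 5.67 to 7.87% in batches 1 and 2 and 10.9 to 13.2% in batch 4, both below the 15.7 to 23.2% of DNMT1 KO. Among the 5 beta subunits, ITGB4 made up 50.9 ± 15.6% in HCT116 and 19.1 ± 2.03% in DNMT1 KO. By batch the ITGB4 share was 53.8 to 72.3% in HCT116 batches 1 and 2 and 32.0 to 44.9% in batch 4, both above the 17.2 to 22.0% of DNMT1 KO. ITGB1 made up 39.7 ± 15.4% and 43.3 ± 9.86%. ITGB5 made up 5.62 to 13.0% in the HCT116 libraries and 24.6 to 40.6% in the DNMT1 KO libraries, so its share did not overlap while its level did.

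**Figure D3:**
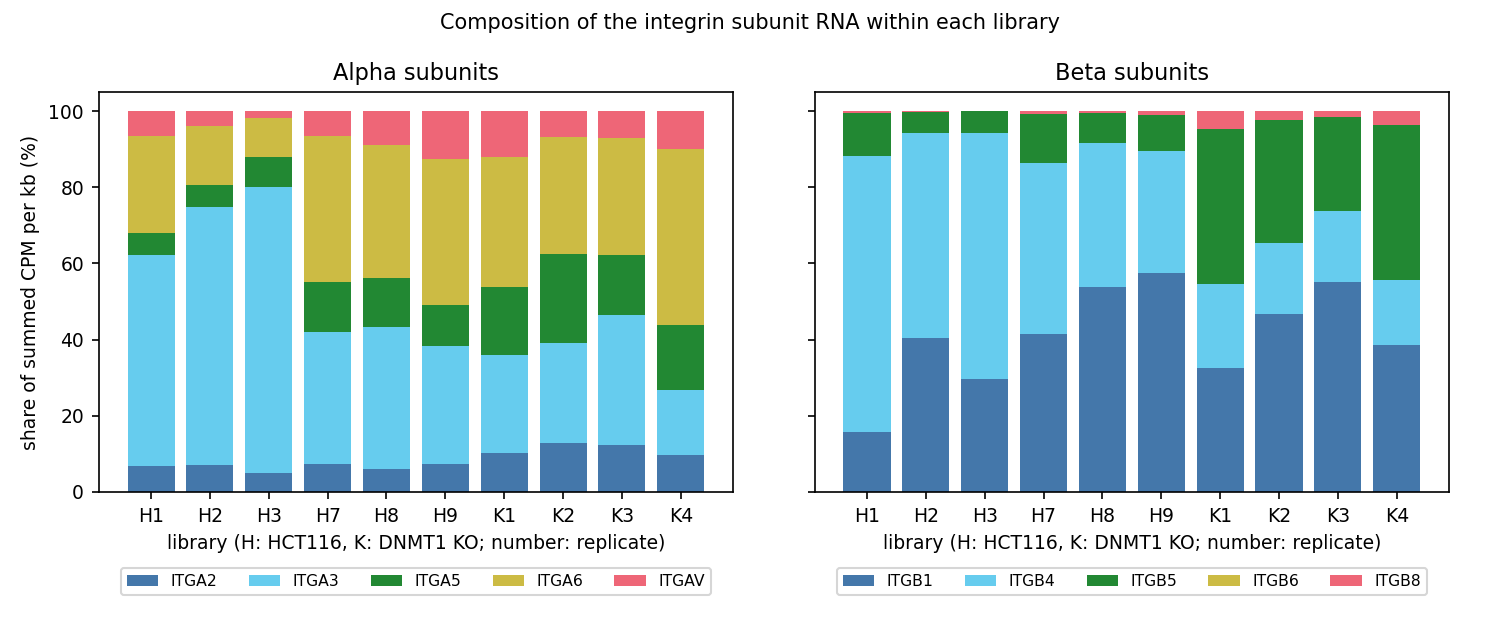
Share of each alpha subunit (left) and each beta subunit (right) in the summed CPM per kb of the 5 alpha and 5 beta genes, in percent, with 1 bar per library. The ITGB4 share averages 50.9% in HCT116 and 19.1% in DNMT1 KO, and HCT116 replicates 7, 8 and 9 have less ITGA3 than replicates 1, 2 and 3.

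Ratios between subunits that share or compete for a partner were compared directly. Each is the log2 ratio of counts per length in a library, tested by a two-sided exact permutation test whose smallest possible p with 6 and 4 libraries is 0.00952. The ITGB4/ITGB1 ratio, which sets the hemidesmosomal beta subunit against the general one, was 0.42 ± 1.11 in HCT116 (SD, n = 6) and -1.16 ± 0.43 in DNMT1 KO (SD, n = 4). The difference of -1.58 had an exact permutation p of 0.0190, or 0.0381 adjusted over the 4 ratios that could be formed. HCT116 batch 4 averaged -0.41 and batches 1 and 2 averaged 1.25, and HCT116 replicate 9 at -0.84 lay below DNMT1 KO replicate 1 at -0.57. It was -2.76 within batch 1 and -2.22 within batch 2. Over both batches the difference was -2.40, where the smallest exact permutation p that 3 libraries against 3 allow is 0.10.

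The ITGAV/ITGB5 ratio was -0.77 ± 0.84 in HCT116 (SD, n = 6) and -2.36 ± 0.53 in DNMT1 KO (SD, n = 4). The difference was -1.59 (exact permutation p = 0.0190, 0.0381 adjusted), with -0.94 within batch 1 and -1.17 within batch 2. Over batches 1 and 2 together it was -1.09 (exact permutation p = 0.20). The ITGA6/ITGA3 ratio was -0.96 ± 1.31 and 0.48 ± 0.68, a difference of 1.43 (exact permutation p = 0.0762, 0.102 adjusted). It was 1.52 within batch 1 and 2.53 within batch 2. HCT116 batch 4 averaged 0.12 for this ratio and batches 1 and 2 averaged -2.04. Leaving out HCT116 replicate 9 (1.69) or DNMT1 KO replicate 3 (1.64) gave an unadjusted exact permutation p of 0.0476. Leaving out any other library gave 0.0794 to 0.190 by the same test. The ITGB8/ITGB5 ratio was -4.62 ± 1.44 and -3.54 ± 0.37, a difference of 1.07 (exact permutation p = 0.133, also adjusted), with p = 0.0317 by the same exact test without HCT116 replicate 9 (1.38), and it was 1.41 within batch 1 and 2.23 within batch 2. For ITGB8/ITGB5, HCT116 batch 4 averaged -3.69, near DNMT1 KO, and batches 1 and 2 averaged -5.54. For ITGAV/ITGB5 these means were -0.31 and -1.23, with batch 4 further from DNMT1 KO. The groups overlapped in all 4 ratios.

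**Figure D4:**
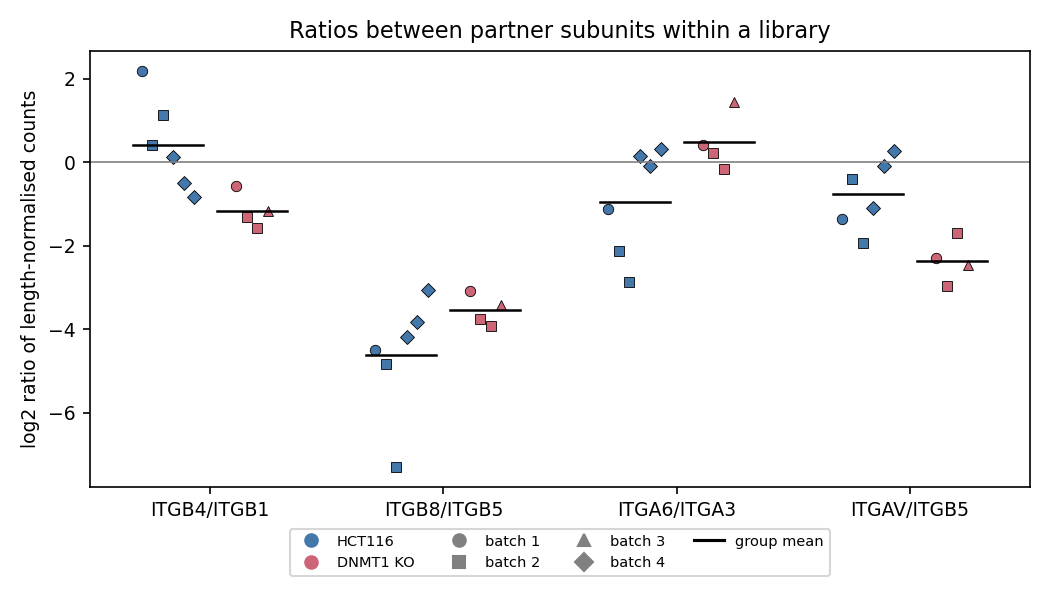
Log2 ratio of counts per length between partner subunits in every library, with the group in colour, the batch as the marker shape and the group mean as a line. The ITGB4/ITGB1 ratio averages 0.42 in HCT116 and -1.16 in DNMT1 KO. HCT116 batch 4 lies towards the DNMT1 KO libraries for ITGB4/ITGB1, ITGA6/ITGA3 and ITGB8/ITGB5, but not for ITGAV/ITGB5.

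Most of the other 16 integrin subunit genes were of low level. Of these genes 13 were tested, 2 passed lower (7.61% of all genes did) and 4 higher (8.45%), and the median log2 fold change was 0.78. These counts and the median support nothing about the list, since ITGA8, ITGA11, ITGB2, ITGB3 and ITGB7 reached the 0.205 CPM of the low-count filter in fewer than 4 HCT116 libraries, and ITGA10 and ITGB7 in fewer than 4 DNMT1 KO libraries. ITGAE, the alpha subunit of the E-cadherin receptor of intraepithelial lymphocytes, was lower at 22.5 ± 13.7 CPM in HCT116 and 8.93 ± 1.15 CPM in DNMT1 KO (log2 fold change -1.34, SE 0.40, edgeR adjusted p = 0.0323). The HCT116 mean of ITGAE was 32.4 CPM in batch 4 but 12.7 CPM in batches 1 and 2. Compared only with HCT116 of its own batch, ITGAE in DNMT1 KO changed less. The log2 values were -0.94 for batch 1, with 1 library per line, and -0.40 for batch 2. The part of batch in the ITGAE result was not tested. ITGA10, a collagen receptor subunit, was lower at 1.05 CPM in HCT116 and 0.287 CPM in DNMT1 KO (log2 fold change -1.83, edgeR adjusted p = 0.0173). ITGB2, the leukocyte beta subunit, was higher at 0.113 and 1.19 CPM (3.49, edgeR adjusted p = 0.000847), and ITGA9 was higher at 0.724 and 2.63 CPM (1.85, adjusted p = 0.00941). ITGA8 and ITGA11 also passed higher while under 1 CPM on average in both groups. ITGA7, at 7.68 and 8.95 CPM, did not pass, nor did ITGA1, ITGA2B, ITGAD, ITGAX, ITGB3 and ITGB7.

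The laminin chains, the ligands of the alpha3 and alpha6 receptors, fell and rose by chain. Of 11 laminin genes 10 were tested, 3 passed lower (7.61% of all genes did) and 2 higher (8.45%). The median log2 fold change was -1.32. LAMB3, the beta chain found in laminin-332, was at 26.1 to 433 CPM in the HCT116 libraries and at 3.68 to 8.44 CPM in DNMT1 KO (log2 fold change -4.99, SE 0.89, edgeR adjusted p = 0.00102). LAMA3, its alpha chain, was at 8.62 and 0.299 CPM (-4.76, edgeR adjusted p = 0.00267), and LAMA4 was at 2.83 and 0.0799 CPM (-5.22, adjusted p = 0.000226). LAMA3 and LAMA4 reached the level of the low-count filter in fewer than 4 DNMT1 KO libraries, so the counts and median of the list are partly set by the filter. LAMC3 rose from 11.9 to 58.2 CPM (2.299, edgeR adjusted p = 0.000376) and LAMA2 from 6.21 to 12.5 CPM (1.01, adjusted p = 0.0178). LAMA5 of laminin-511, named after its values were seen, did not pass, at -1.61 (edgeR adjusted p = 0.0807).

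Several of these chains also differed between the HCT116 batches, as ITGA3 and ITGB4 did. Between HCT116 batch 4 and batches 1 and 2, log2 fold changes were -3.04 for LAMB3 (edgeR adjusted p = 0.00541), -2.76 for LAMA3 (adjusted p = 0.0088) and -1.85 for LAMA5 (adjusted p = 0.0228). Against HCT116 batch 4 alone LAMB3 was at a log2 fold change of -2.77 in DNMT1 KO (edgeR adjusted p = 1.19e-05), LAMA3 was at -2.80 (adjusted p = 0.00227) and LAMA5 was at -0.39 (adjusted p = 0.530). The part of batch in these results was not tested beyond these values.

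Of 21 genes for RGD-containing and other matrix ligands 14 were tested, 4 passed lower (7.61% of all genes did) and 3 higher (8.45%). The median log2 fold change was -0.86. Of the 14, 3 reached the 0.205 CPM of the low-count filter in fewer than 4 DNMT1 KO libraries. These counts and the median are partly set by the filter and support nothing about the list. NPNT, which encodes nephronectin, a ligand of alpha8beta1, was at 15.2 to 46.7 CPM in HCT116 and 0.533 to 0.938 CPM in DNMT1 KO (log2 fold change -5.30, SE 0.40, edgeR adjusted p = 4.08e-07). The surface metalloproteases ADAM15 and ADAM9 were lower, at log2 fold changes of -1.25 and -1.08 (edgeR adjusted p = 0.00197 and 0.0077). The matricellular genes CCN1 and CCN2 were higher by 1.34 and 1.35 (edgeR adjusted p = 0.0049 and 0.0165), as was the adhesion molecule L1CAM by 1.14 (adjusted p = 0.00621).

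The cytoplasmic adaptors connect the beta tails to actin and to kinases. Of 39 adaptor and focal adhesion genes 38 were tested, 5 passed lower and 3 higher, 21.1% in all, and the median log2 fold change was -0.01. That share is near the 16.1% of all genes tested that passed, 7.61% lower and 8.45% higher. The tensins, adaptors that bind the beta tail, went both ways. TNS4 was at 38.5 to 120 CPM in HCT116 and 5.3 to 9.21 CPM in DNMT1 KO, a log2 fold change of -3.64 (SE 0.37, edgeR adjusted p = 6.31e-06), and TNS2 was also lower (-2.04, adjusted p = 7.9e-05). TNS3 was at 11.95 to 32.9 CPM and 61.3 to 155 CPM (2.27, SE 0.32, edgeR adjusted p = 0.000148). ZYX, which encodes zyxin, was lower (-1.40, edgeR adjusted p = 0.00661), and FERMT2, which encodes the integrin activator kindlin-2, was higher (1.18, adjusted p = 0.00325). The focal adhesion kinase relative PTK2B was lower (-1.69, edgeR adjusted p = 0.0366), and TLN2, which encodes talin-2, was higher (1.195, adjusted p = 0.0445).

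The hemidesmosome genes beside ITGA6 and ITGB4, all 4 named after their values were seen, showed no call. None of the 4 tested passed in edgeR, where 7.61% of all genes passed lower and 8.45% higher. In the lower direction 2 had an unadjusted p under 0.05, and 1 passed in DESeq2, with no share over all genes given for either. The median log2 fold change was -0.55, and 4 genes are too few for these counts to support anything about the list. PLEC, which encodes the plectin that binds the beta4 tail, was at 911 ± 471 and 631 ± 174 CPM (-0.53, edgeR adjusted p = 0.432). On the same scale COL17A1, the hemidesmosomal collagen XVII, was at -2.08 (edgeR adjusted p = 0.0553), CD151 at -0.56 (adjusted p = 0.108) and DST at -0.48 (adjusted p = 0.337).

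Of 12 latent TGF-beta genes, on which alphav integrins act, all were tested, 2 passed lower and 2 higher, with a median log2 fold change of 0.11. The shares over all genes, for this list and the next 2, were 16.1% passing, 7.61% lower and 8.45% higher. In this list 1 gene reached the filter level in fewer than 4 HCT116 libraries and 1 in fewer than 4 DNMT1 KO libraries. Its counts and median are partly set by the filter and support nothing about the list. TGFBR2, the type II receptor, was lower at -0.998 (edgeR adjusted p = 0.0101) and LTBP3, a latent TGF-beta binding protein, at -1.32 (adjusted p = 0.043). TGFB3 was higher at 1.22 (edgeR adjusted p = 0.0125). Of 14 tetraspanins and lateral partners 13 were tested, 3 passed lower and none higher. At an unadjusted p under 0.05 in edgeR 7 were lower and none higher, and in DESeq2 3 passed lower and none higher. No share over all genes is given for the unadjusted or DESeq2 counts, so they support nothing about the list. MET, a receptor kinase that associates with alpha6beta4, was at 465 to 762 CPM in HCT116 and 45.6 to 96.3 CPM in DNMT1 KO (-3.07, SE 0.29, edgeR adjusted p = 3.84e-06). PLAUR, the urokinase receptor, was at -1.91 (edgeR adjusted p = 0.00661) and CAV1, a caveolin, at -1.29 (adjusted p = 0.0425). Of 10 trafficking genes 9 were tested and 2 passed, both lower: RAB25, which recycles alpha5beta1, at -3.89 (edgeR adjusted p = 2.38e-05) and SWAP70 at -6.39 (adjusted p = 1.1e-06).

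**Figure D5:**
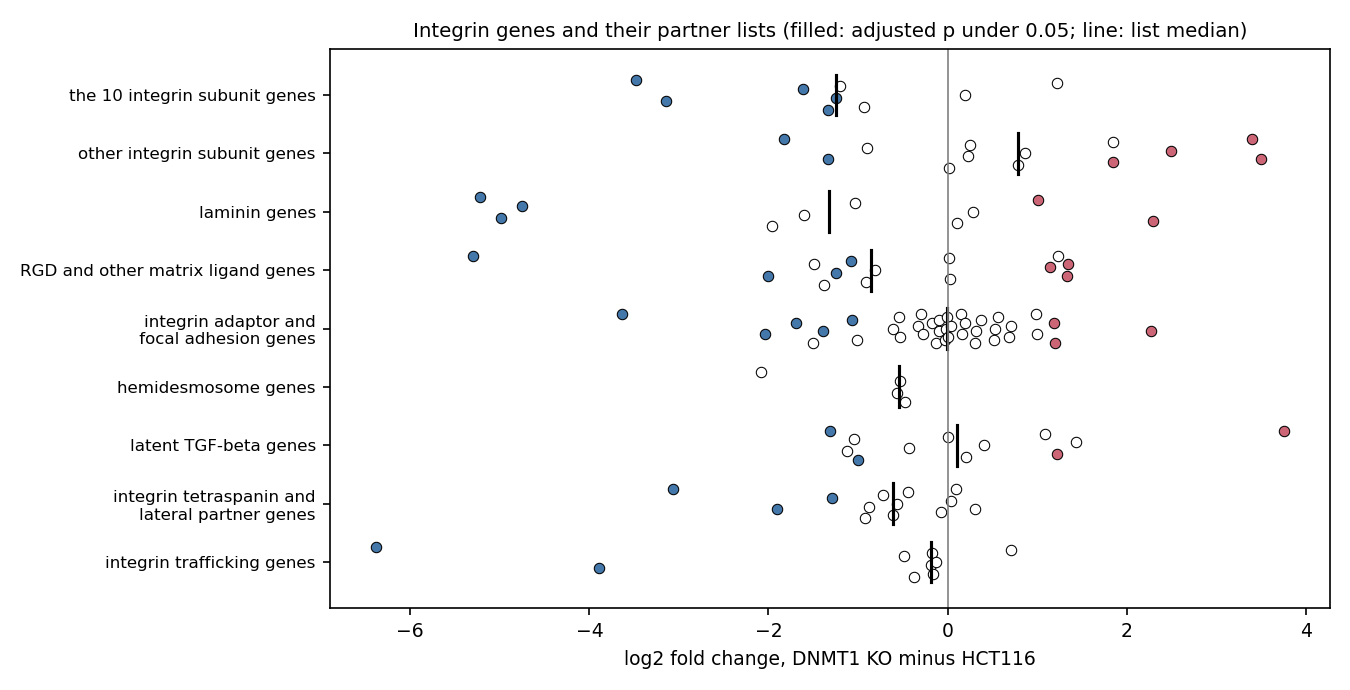
Log2 fold change, DNMT1 KO minus HCT116, of each tested gene of the integrin members and the 8 partner lists, filled blue or red where it passed lower or higher at an adjusted p under 0.05, with a line at each list's median. The medians are -1.25 for the members, -1.32 for the laminins, -0.01 for the adaptors and 0.78 for the other integrin subunits.

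The cell type markers showed what else moved with these genes. The 12 epithelial markers summed to 2880 to 6785 CPM in HCT116 and to 864.8 to 1641 CPM in DNMT1 KO. Of the 10 tested, 6 passed lower, among them KRT8, KRT18, EPCAM and CLDN7 at log2 fold changes of -2.69, -2.29, -2.08 and -2.20, and 1 passed higher. The shares over all genes were 7.61% lower and 8.45% higher. VIL1, the gene higher, reached the level of the low-count filter in fewer than 4 HCT116 libraries. KRT20, named like PTPRC and LCP2 after its values were seen, had no count in any library. The 10 leukocyte markers summed to 1.30 to 2.03 CPM and 13.8 to 25.1 CPM. Of the 3 tested all passed higher, among them CD8A and CD4, while PTPRC was near 0 and LCP2 had no count. The 10 fibroblast markers summed to 8.94 to 22.0 and 17.2 to 22.4 CPM, and the 6 endothelial markers summed to 0.349 to 1.98 and 4.48 to 6.26 CPM. Of these, 3 of the 5 fibroblast and 2 of the 3 endothelial markers tested passed higher, but 2 of the 5, all 3 of the endothelial markers and 1 of the 3 leukocyte markers reached the filter in fewer than 4 HCT116 libraries, so these counts are largely set by the filter. The part of the epithelial and other marker differences in the integrin results was not tested.

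For each tested member, the protein-coding gene with the most similar pattern over the 10 libraries was taken by Pearson's r of log2 CPM, as a description over libraries that share batches and groups. It was DUSP4 for ITGB4 (r = 0.994), PLEKHA6 for ITGA3 (0.994), SH3KBP1 for ITGA2 (0.986), AK1 for ITGB5 (0.984), VPS36 for ITGAV (0.982), SYNJ1 for ITGA6 (0.981), DENND3 for ITGB1 (0.977), GPRC5D for ITGA5 (0.973) and CD79A for ITGB8 (0.970). No member shared its closest gene with another.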

How the data were processed

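The authors deposited raw read counts per gene, 1 table per library, with no normalisation. Per the labels and the study's methods, poly(A)-selected stranded libraries were sequenced as paired-end reads, trimmed with Trim Galore 0.4.1, aligned with bowtie2 to hg38 without splitting at exon junctions, filtered at a mapping quality of 10 and counted over exons with featureCounts, for which no strand setting is given in the sources used here. The deposited tables also give the exon length used for levels per kilobase. Another 3 tables, which match no labelled sample, were not used.

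From the counts, CPM on TMM-scaled totals and differential expression were computed in R 4.3.3 with edgeR 4.0.16 (filterByExpr, glmQLFit and glmQLFTest, two-sided, group as the only term), with Benjamini-Hochberg adjustment over all 19279 genes tested. A gene passed at an adjusted p under 0.05. DESeq2 1.42.0 was an alternative, as were other size factors and filters, halved counts of the libraries with mostly even low counts, batch terms, the replicate number as a block, and leaving out each library. The scripts were tested on simulated data. Comparison with 3 HCT116 libraries at a time was chosen after seeing the data. Standard errors were derived from the log2 fold change and the F statistic. The 10 integrin genes and all lists were chosen with earlier results of these data known.

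Named beside the members are DNMT1, the other tested integrin subunits, up to 4 genes per list and direction that passed with the smallest p and averaged at least 1 CPM in one of the lines, and the gene most like each member. Genes named outside this rule are said to be so. The study describes its RNA libraries of each line as separate cultures, and p-values measure the spread between them within these 2 lines. Members other than ITGB6 had at least 84 counts in each library. A few genes of the lists are not reported here by name.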

Additional observations from a re-analysis of the deposited data

Results flagged for a closer look

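ITGA2 in DNMT1 KO replicate 3 was at 66.02 CPM, far from the 25.9 to 31.1 CPM of the other 3 DNMT1 KO libraries relative to the range of the group. It was the only value marked among 30 groups of 4 or 6 libraries examined, where chance alone marks about 1.5. The ITGA2 log2 fold change was -1.20 with this library (edgeR adjusted p = 0.0592) and -1.59 without it (adjusted p = 0.0246).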

How the results depend on the processing

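ITGA3, ITGB1 and ITGB4 passed lower in all 21 alternatives. ITGA6 lost the call in batch 2 alone (-1.41), and ITGAV in batch 2 alone (-1.39), with batch as a term in batches 1 and 2 (-1.25) and with the replicate block (-1.27), where fewer libraries entered. ITGA2 gained a call with no low-count filter (-1.22), the batch term (-1.50), the replicate block (-1.55), DESeq2 (-1.20) and HCT116 batches 1 and 2 alone (-1.69). ITGA5 did so with no filter (-0.96) and DESeq2 (-0.93), and ITGB8 with library totals alone (1.43), no filter (1.19), the batch term (1.57), the replicate block (1.74), DESeq2 (1.25) and HCT116 batch 4 alone (1.01). ITGB5 turned negative with the batch term (-0.21), batch 2 alone (-0.30), the replicate block (-0.19) and HCT116 batches 1 and 2 alone (-0.19). With 1 library left out at a time, log2 fold changes ran from -1.59 to -0.89 for ITGA2, -1.13 to -0.66 for ITGA5 and 0.92 to 1.43 for ITGB8. Members passing lower were 3 in batch 2 alone and 5 to 7 with a library left out. Members passing higher were 1 with library totals alone, no filter, the batch term, the replicate block, DESeq2 and HCT116 batch 4 alone, and 0 to 1 with a library left out, and that member was ITGB8. Replicates 1 to 3 share their numbers across the lines. Same-numbered libraries had deviations from their line's mean that correlated at 0.463, -0.199 and 0.375, and not every library correlated best with its own number, so the numbers were not taken as pairs. The replicate block changed no other member's call.

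The numbers of passing genes in the partner lists moved by over 1.5 times as follows. Under a minimum of 10 counts per library the numbers passing were 2 of the other integrins, 3 laminins, 5 adaptors and 2 latent TGF-beta genes, and in batch 2 alone they were 2 of the other integrins, 1 matrix ligand, 5 adaptors, 1 hemidesmosome gene and 2 latent TGF-beta genes. The batch term gave 8 laminins, 2 hemidesmosome genes, 7 latent TGF-beta genes and 6 tetraspanins and lateral partners. The replicate block gave 8, 2 and 5 for laminins, hemidesmosome genes and tetraspanins, and HCT116 batches 1 and 2 alone gave 8 laminins, 2 hemidesmosome genes, 7 latent TGF-beta genes and 5 tetraspanins. No filter and DESeq2 each gave 1 hemidesmosome gene. With a library left out, adaptors ran from 5 to 8 (5 without HCT116 replicate 1 or DNMT1 KO replicate 1, 2 or 4), hemidesmosome genes from 0 to 1, and latent TGF-beta genes from 2 to 5 (2 without DNMT1 KO replicate 2). Over all genes, 7.7% passed lower and 7.8% higher with the batch term, and 8.7% and 7.93% against HCT116 batches 1 and 2 alone. Shares for the other settings in this paragraph are not given, and directions are not split. These moves in number support nothing about the lists. The ITGB4/ITGB1 and ITGAV/ITGB5 differences were -2.40 and -1.09 in batches 1 and 2, where p under 0.05 cannot be reached. With a library left out the ITGA6/ITGA3 difference ran from 1.05 to 1.69 and that of ITGB8/ITGB5 from 0.54 to 1.38. ITGB6/ITGB5 was planned as another ratio and could not be formed, since 1 library had 0 ITGB6 counts. The causes were not tested where none is given.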
